A study of Gasterosteus aculeatus with 12 samples.

Results

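The genes described here are 60 kidney genes of the threespine stickleback with a dip at 11 g/L. They were lower in all 3 libraries of freshwater fish kept at 11 g/L (FW11K) than in the 9 libraries of freshwater fish at 0 g/L (FW00K), freshwater fish at 33 g/L (FW33K) and saltwater fish at 33 g/L (SW33K). They were chosen by that dip. Of the 20860 genes in the table, 15503 averaged 1 FPKM or more and were kept, and each library was scaled so that these genes had a median of 10. FPKM counts fragments relative to transcript length and to the mapped fragments of the library, and a level on this scale is called scaled FPKM below. The lowest of the 9 values plus 1 was divided by the highest FW11K value plus 1, and the 60 genes with the highest quotient, called the score, were taken from 15471 ranked genes. A further 32 tested genes were left out by identifier before ranking.

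Adult females were caught as freshwater fish (FW) in a lake and as saltwater fish (SW) in a marine bay, and kidney RNA of 3 fish per treatment was sequenced, by the study's methods. Fish of all 4 treatments were held for 30 days at the salinity in the name of the treatment, so SW33K and FW33K shared the water and differed in population, and the 3 FW treatments form a salinity series of 0, 11 and 33 g/L. No SW fish at another salinity were in the data. Reads of SW fish were aligned with more mismatches allowed than reads of FW fish, so the population and this setting cannot be told apart in any comparison with SW33K.

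The kidney of a bony fish carries out several tasks at once. Its nephrons filter the blood and recover or secrete ions, sugars, amino acids and nucleosides across a polarised epithelium, whose cells are sealed by tight junctions and sort membrane proteins to an apical and a basal side. Between the tubules lies blood-forming tissue with red cell precursors, leukocytes and dividing cells, so that a piece of kidney holds epithelium and blood-forming tissue in a proportion that can vary from fish to fish. In fresh water the kidney makes much dilute urine, and in sea water little urine rich in divalent ions.

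Read numbers are not part of the deposited values. The median FPKM of the 15503 genes differed between treatments, at 5.43 to 11.0 in SW33K, 14.4 to 16.7 in FW00K, 10.3 to 11.8 in FW11K and 4.39 to 6.75 in FW33K, and this shift is removed by the scaling. Replicates 2 and 3 of each treatment correlated at 0.990 to 0.992 across genes on the log2 scale, against 0.846 to 0.945 for pairs with replicate 1. Whether replicates 2 and 3 come from separate animals cannot be told from FPKM, so p-values measure the spread between these libraries, which may in part be technical. The defining podocyte gene *NPHS1* was detected in each of the 12 libraries. The summed level of 6 skeletal muscle genes was 25.0 to 278 in FW00K, against 1.09 to 26.8 in the other 3 treatments.

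The dip of the members was deep in the median and differed in size between them. The median member stood at a mean of 13.7 scaled FPKM in SW33K, and along the salinity series at 12.3 in FW00K, 5.05 in FW11K and 14.4 in FW33K. Over the FW11K mean, the FW00K mean of a member was 1.505 to 7.55 times as high with a median of 2.41, whereas the median over all tested genes was 0.940. The FW33K mean was 1.59 to 13.7 times the FW11K mean with a median of 2.69 (0.956 over all genes), and the SW33K mean 1.61 to 25.0 times with a median of 2.85 (1.01 over all genes). These ratios follow from the choice of the members and were not tested. All 3 FW11K values below all 9 others were found for 584 of the 15503 genes (3.77%), and the 60 members are the part of them with the widest gap. Such a low was not particular to FW11K. The same count was 1241 genes for SW33K, 1520 for FW00K and 536 for FW33K.

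**Figure D1:**
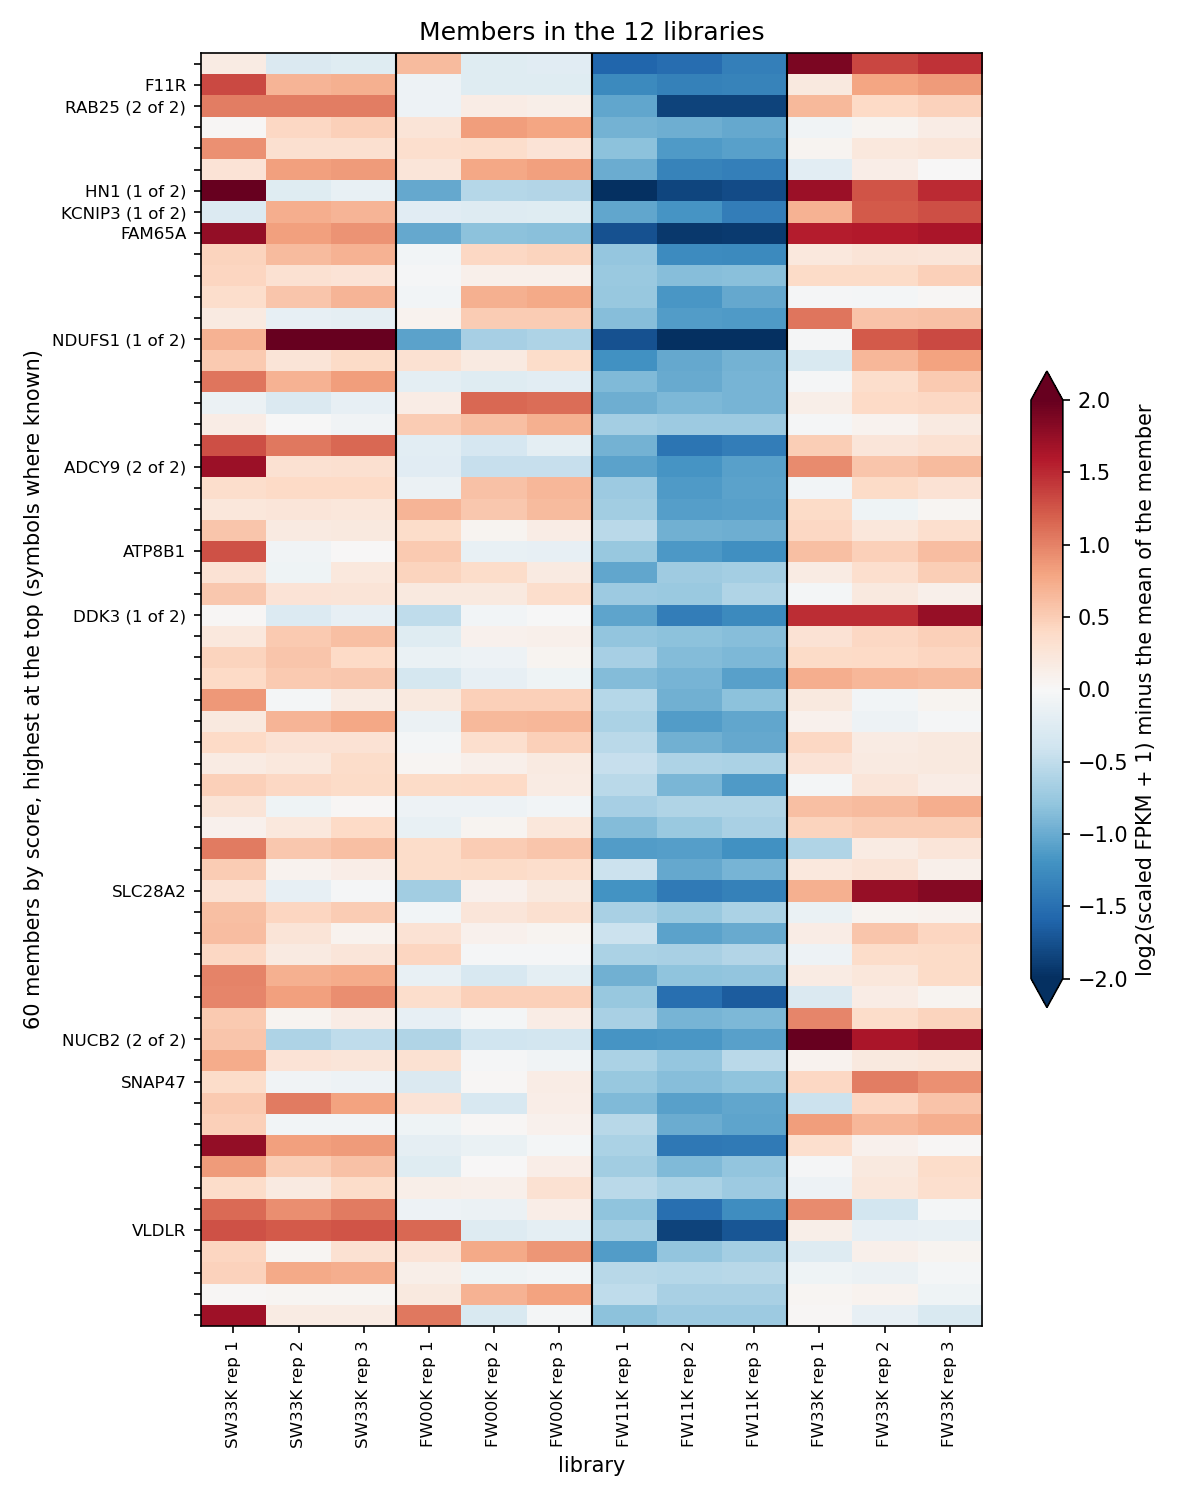
Level of the 60 members (rows, highest score at the top) in the 12 libraries (columns), as log2(scaled FPKM + 1) minus the mean of the member, blue below and red above that mean. The 3 FW11K columns are blue in all 60 rows because the rule chose them so, while the other 9 columns differ from member to member, with *FAM65A*, *NUCB2* and *DDK3* reddest in FW33K.

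The score was 2.12 at rank 1 with a median of 1.44, and 25 members had 1.5 or more. The rule has no gap at its end. The members of rank 58, 59 and 60 were ENSGACG00000003970 with a score of 1.35, ENSGACG00000010453 with 1.34 and ENSGACG00000005460 with 1.33, and the first genes outside, ENSGACG00000017570, ENSGACG00000020015 and ENSGACG00000010868, each had 1.33. Across all ranked genes, 581 had a score above 1. The highest of the 9 other values did not enter the score, so what a member did in FW33K and SW33K above its lowest value was left free. The highest mean was in SW33K for 32 members, in FW00K for 9 and in FW33K for 19.

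The rule weighs single libraries, and replicate 1 decided it most often. The highest FW11K value was that of replicate 1 in 44 members, and the lowest of the 9 others was a replicate 1 in 36 members, 22 of them in FW00K and 13 in FW33K. With FW11K replicate 1 left out, 987 genes reached the score of rank 60. All 60 members were among them, which follows from the rule, since the highest of fewer FW11K values cannot be larger. However, only 2 members were still among the first 60, and the median member had rank 374.5. Leaving out FW00K replicate 1 kept 28 members among the first 60, leaving out FW33K replicate 1 kept 43, and the other 9 libraries 50 to 60. Where the 3 treatment means took the place of single libraries, 18 members were kept. Membership is therefore a statement about genes that are also low in FW11K replicate 1, which for many other genes lay nearer to the other treatments than replicates 2 and 3 did. FW11K replicate 1 and FW33K replicate 1 were also the libraries with the fewest reads used in the mapping, and the part of depth in the choice of the members was not tested.

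**Figure D2:**
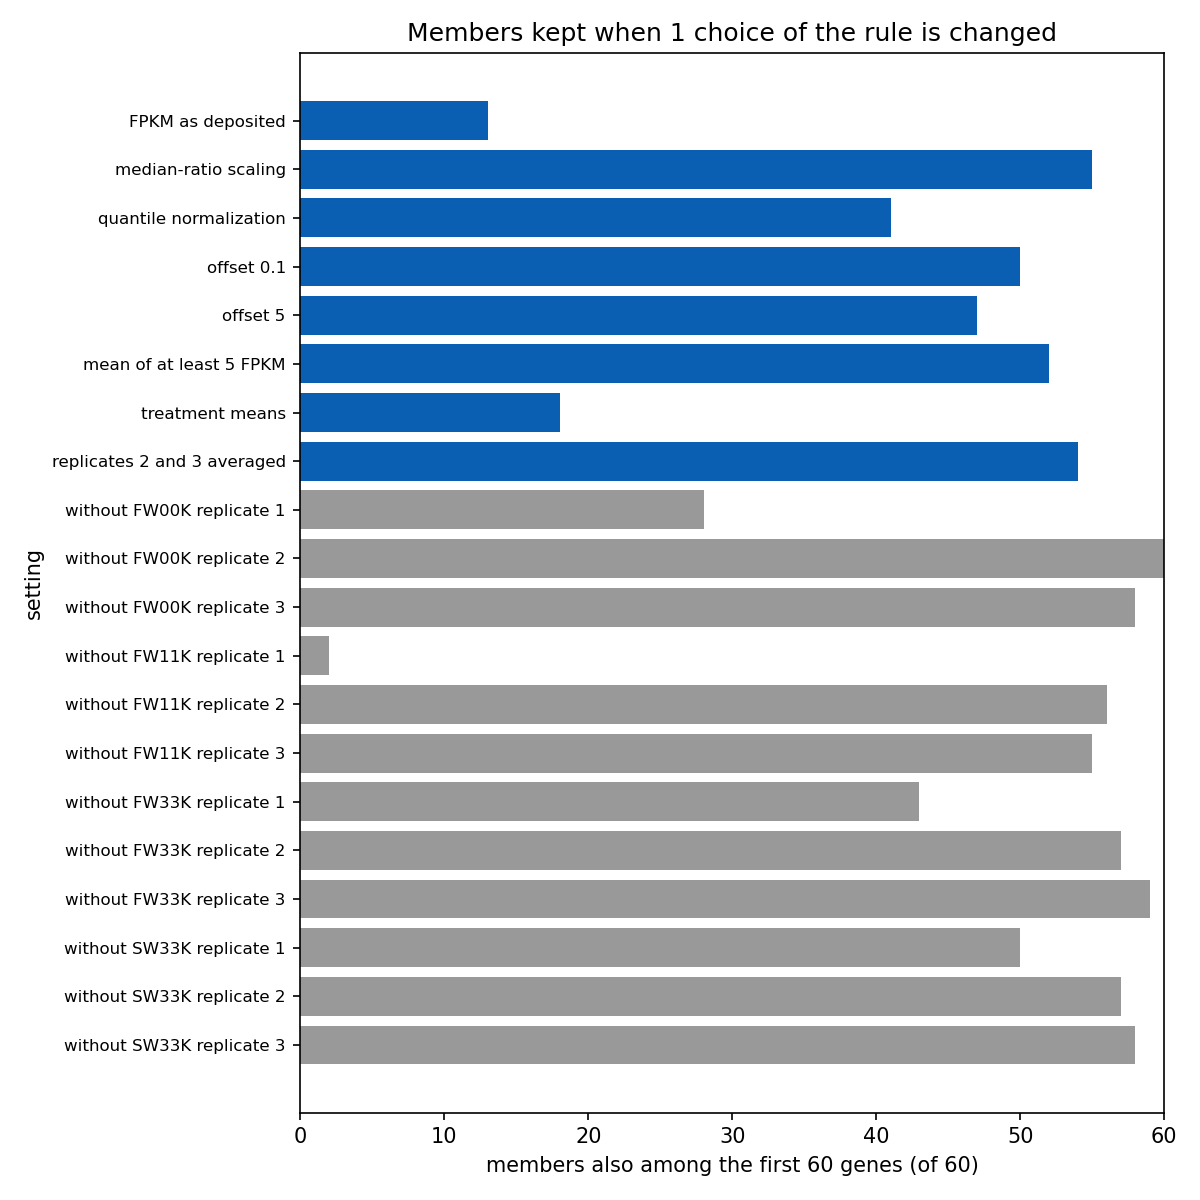
Number of the 60 members that stay among the first 60 genes (horizontal axis) when 1 choice of the rule is changed (vertical axis), in blue for processing choices and in grey for each library left out. The bar without FW11K replicate 1 ends at 2 and the bar for unscaled FPKM at 13.

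The scaling bears on the dip toward FW33K most. In FPKM as deposited, all FW11K values lay below all FW00K values in 60 of 60 members, below all SW33K values in 51 and below all FW33K values in 21, and 21 members were below all 9 (0.884% of all tested genes as deposited). The deposited mean of FW00K over FW11K had a median of 3.26 in members against 1.29 in all genes, that of FW33K over FW11K 1.39 against 0.492, and that of SW33K over FW11K 2.27 against 0.815. Scaling multiplies all genes of a library by the same factor, so the medians of the members and of all genes moved together. The similar distance between them on both scales follows from this and is no support for the dip.

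Symbols were known for 13 of the 60 members, from tables of genes that the study selected as salt-responsive on these same samples. The other 47 are given by identifier. Roles stated below are known from mammals. The epithelial junction and membrane traffic members come first. *F11R* encodes a junctional adhesion molecule of tight junctions. It stood at 88.2, 56.3 and 57.0 scaled FPKM in SW33K, and in the salinity series at 32.1, 29.0 and 29.1 in FW00K, 13.8, 12.9 and 13.1 in FW11K and 39.6, 60.5 and 63.4 in FW33K. The 3 FW11K libraries lay within 1 unit of each other, and the next library above them was FW00K replicate 2. *F11R* was higher in SW33K than in FW00K, by 1.10 on the log2 scale (SE 0.22, adjusted p = 0.00299, limma), with no overlap. Between FW33K and FW00K its groups did not overlap either, but the difference of 0.81 did not pass the threshold (adjusted p = 0.0155) and was -0.58 in unscaled FPKM. The call against FW00K was lost without FW00K replicate 2 or 3 (adjusted p = 0.0141 and 0.0138) and in unscaled FPKM (0.29, adjusted p = 0.468).

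*RAB25* (2 of 2), 1 of a pair of copies of a small GTPase that returns endosomal cargo to the apical surface of epithelial cells, had 49.9, 49.5 and 50.0 in SW33K, and 22.4, 26.7 and 26.1 in FW00K, 11.1, 5.92 and 5.95 in FW11K and 38.2, 31.9 and 33.2 in FW33K. In scaled FPKM the treatments did not overlap at any point, in the order FW11K, FW00K, FW33K and SW33K. This order depended on the scaling. In unscaled FPKM, FW33K was below FW00K, with 16.8, 21.6 and 20.4 against 37.5, 39.6 and 37.4 (-0.94, adjusted p = 0.0162, limma). The difference of SW33K from FW00K was 0.97 (SE 0.21, adjusted p = 0.00492), and those of FW33K from FW00K (0.44) and of SW33K from FW33K (0.52) both had an adjusted p of 0.127. Without any 1 of the 6 libraries of the pair, the call was lost (adjusted p of 0.0141 to 0.0187), and in unscaled FPKM the difference was 0.16. *SNAP47*, a SNARE protein of vesicle fusion, had 8.02, 5.65 and 5.49 in SW33K, and 4.70, 6.06 and 6.71 in FW00K, 3.13, 2.84 and 2.97 in FW11K and 8.25, 13.1 and 12.1 in FW33K. Its FW33K libraries were above all others, although the difference from FW00K of 0.82 just missed the threshold (SE 0.20, adjusted p = 0.0102) and turned to -0.43 in unscaled FPKM.

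Among the members that move or bind substrates at the membrane, *SLC28A2* was the most abundant. It encodes a sodium-coupled transporter that takes up purine nucleosides. Its level was 108, 78.8 and 86.4 in SW33K, and 53.7, 93.3 and 101 in FW00K, 38.0, 32.3 and 33.7 in FW11K and 145, 295 and 316 in FW33K. SW33K and FW00K overlapped, and each FW33K library was above every other library. The rise in FW33K over FW00K was 1.57 (SE 0.32, adjusted p = 0.00354). It lost its call without FW00K replicate 1, FW33K replicate 2 or FW33K replicate 3 (adjusted p = 0.0115, 0.0183 and 0.0189), and it was 0.15 in unscaled FPKM (adjusted p = 0.742).

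*ATP8B1*, a flippase that keeps phospholipids on the inner side of apical membranes, stood at 20.8, 7.53 and 8.03 in SW33K, and at 11.9, 7.08 and 7.00 in FW00K, 4.31, 3.03 and 2.85 in FW11K and 12.6, 11.4 and 12.8 in FW33K. Outside FW11K its treatments overlapped, and none of its 3 tested differences passed (adjusted p of 0.277 to 0.812). *VLDLR*, a lipoprotein receptor, had 48.5, 46.9 and 47.9 in SW33K, and 44.6, 16.2 and 16.9 in FW00K, 11.7, 4.69 and 5.25 in FW11K and 21.1, 17.3 and 17.5 in FW33K. Replicate 1 of FW00K stood apart from its 2 fellows, close to the level of SW33K. The difference of SW33K from FW33K was 1.32 (SE 0.38, adjusted p = 0.0444), without overlap, and did not pass the threshold.

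*FAM65A* had 82.7, 42.5 and 45.4 in SW33K, and 11.2, 13.0 and 12.9 in FW00K, 6.39, 5.50 and 5.54 in FW11K and 72.3, 73.5 and 75.9 in FW33K. Both groups at 33 g/L were far above both groups at lower salinity. The rise over FW00K was 2.49 in FW33K (SE 0.22, adjusted p = 4.46e-05) and 2.05 in SW33K (SE 0.22, adjusted p = 0.00013). Both calls held without each library in turn and in unscaled FPKM (1.11 with adjusted p = 0.00153, and 1.26 with adjusted p = 0.00158).

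*NUCB2* (2 of 2) belongs to a calcium-binding family, and in mammals the protein is the precursor of the peptide nesfatin-1. It had 79.7, 35.0 and 37.7 in SW33K, and 35.3, 40.9 and 41.6 in FW00K, 23.3, 23.6 and 25.0 in FW11K and 217, 170 and 180 in FW33K. The FW33K libraries were above all others, and SW33K overlapped FW00K. It rose by 2.23 in FW33K over FW00K (SE 0.27, adjusted p = 0.000191), a call kept in unscaled FPKM (0.82, adjusted p = 0.00733), and it was lower in SW33K than in FW33K, at -1.97 (adjusted p = 0.00148, and 0.0101 without SW33K replicate 3). The gene listed as *DDK3* (1 of 2) had a similar course, with 10.5, 8.41 and 9.10 in SW33K, and 6.98, 9.91 and 10.2 in FW00K, 4.44, 3.37 and 3.71 in FW11K and 30.5, 30.4 and 37.1 in FW33K. It was higher in FW33K than in FW00K by 1.76 (SE 0.17, adjusted p = 7.29e-05; 0.41 and adjusted p = 0.177 unscaled), and SW33K was below FW33K, at -1.70 (adjusted p = 0.000368; -1.11 and adjusted p = 0.0269 unscaled).

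*KCNIP3* (1 of 2), a calcium sensor that binds voltage-gated potassium channels, was a low-level member. It had 2.86, 6.72 and 6.48 in SW33K, and 3.01, 2.93 and 2.94 in FW00K, 1.28, 1.06 and 0.799 in FW11K and 6.58, 10.003 and 10.4 in FW33K. Replicate 1 of SW33K lay at the level of the FW00K libraries, so that SW33K and FW00K overlapped. The rise in FW33K over FW00K was 1.31 (SE 0.27, adjusted p = 0.00366), and it was lost without any 1 of the 3 FW00K libraries or without FW33K replicate 2 or 3 (adjusted p of 0.0106 to 0.0199) and unscaled (0.13). *ADCY9* (2 of 2), an adenylyl cyclase that makes cAMP, had 36.6, 13.2 and 13.3 in SW33K, and 8.78, 7.34 and 7.36 in FW00K, 4.47, 4.06 and 4.42 in FW11K and 21.0, 15.9 and 16.7 in FW33K. Its libraries at 33 g/L were above those at 0 g/L without overlap, with differences from FW00K of 1.16 in SW33K (adjusted p = 0.016, and 0.00881 with the replicate number as a block) and 1.09 in FW33K (adjusted p = 0.0223, turning to -0.23 unscaled) that did not pass.

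*NDUFS1* (1 of 2), a core subunit of mitochondrial complex I, had 42.8, 154 and 161 in SW33K, and 11.8, 16.0 and 16.7 in FW00K, 7.08, 5.54 and 5.09 in FW11K and 25.6, 62.3 and 66.3 in FW33K. Replicate 1 was the lowest library in SW33K, FW00K and FW33K and the highest in FW11K. It was higher in SW33K than in FW00K by 2.72 (SE 0.49, adjusted p = 0.00188), the largest rise of a member in the 3 tested comparisons, and this call held without each library in turn but not in unscaled FPKM (1.93, adjusted p = 0.034). *HN1* (1 of 2) had 192, 11.1 and 11.9 in SW33K, and 5.98, 8.58 and 8.52 in FW00K, 2.48, 2.98 and 3.12 in FW11K and 45.8, 33.0 and 39.0 in FW33K. SW33K replicate 1 was far above the 2 other SW33K libraries and sets the ratio of 25.0 named above. No difference of *HN1* passed with all libraries (adjusted p of 0.0591 to 0.826), whereas without SW33K replicate 1 it was higher in FW33K than in FW00K (adjusted p = 3.04e-05) and lower in SW33K than in FW33K, at -1.68 (adjusted p = 8e-04).

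**Figure D3:**
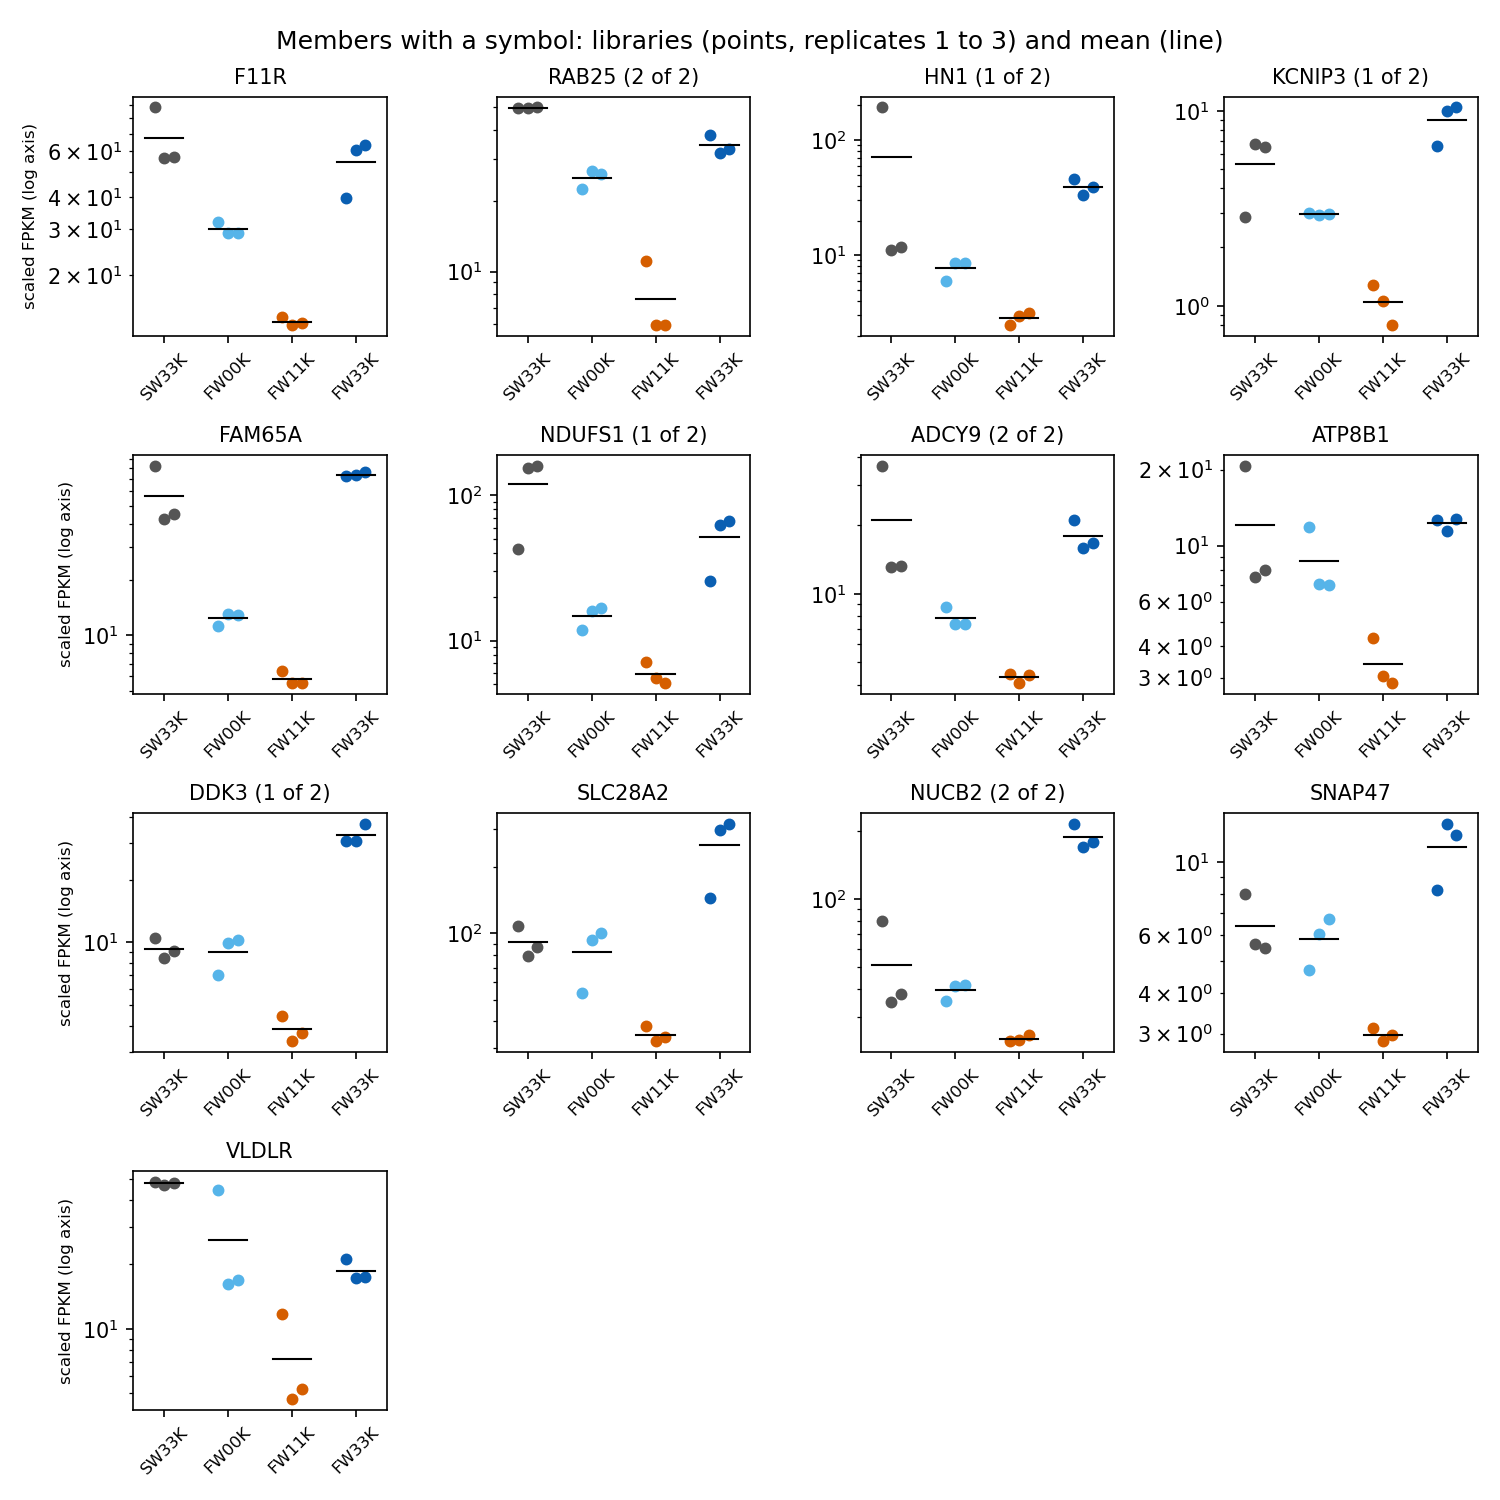
Scaled FPKM of the 13 members with a symbol (log axes, a panel each) in SW33K, FW00K, FW11K and FW33K, with points for replicates 1 to 3 and a line at the mean of 3. In each panel the 3 FW11K points are the lowest, by the choice of the members, and SW33K replicate 1 of *HN1* (192) and the FW00K replicate 1 of *VLDLR* (44.6) stand apart from their groups.

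ENSGACG00000010798, at rank 1, is a member without a symbol. It had 9.76, 6.87 and 7.18 in SW33K, and 14.0, 7.18 and 7.28 in FW00K, 2.22, 2.34 and 2.72 in FW11K and 34.5, 23.3 and 25.3 in FW33K. Its level was highest in FW33K without overlap, by 1.49 over FW00K (SE 0.25, adjusted p = 0.00124), and SW33K was below FW33K, at -1.68 (adjusted p = 0.0022). The first of these calls held without each library in turn but not unscaled (0.15, adjusted p = 0.646). The second was lost without FW33K replicate 3 (0.0109), SW33K replicate 2 (0.0156) or SW33K replicate 3 (0.0151) and unscaled (-1.09, adjusted p = 0.039).

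In contrast, several members of high score had a plain dip in scaled FPKM, with the other 3 treatments close to each other on that scale. ENSGACG00000008655 (rank 5) had 7.20, 4.43 and 4.47 in SW33K, and 4.51, 4.58 and 4.30 in FW00K, 1.48, 0.999 and 1.06 in FW11K and 3.53, 4.04 and 4.17 in FW33K. ENSGACG00000011338 (rank 11) had 20.6, 18.8 and 18.4 in SW33K, and 14.7, 16.1 and 16.2 in FW00K, 8.57, 7.92 and 7.96 in FW11K and 19.9, 19.99 and 21.3 in FW33K. ENSGACG00000005914 (rank 10) stood at 34.4, 39.6 and 41.1 in SW33K, and at 24.2, 33.9 and 34.7 in FW00K, 14.3, 9.98 and 9.85 in FW11K and 29.3, 30.1 and 29.8 in FW33K. In these 3 genes no tested difference outside FW11K passed the threshold in scaled FPKM. In unscaled FPKM all 3 had FW33K below FW00K without overlap. ENSGACG00000005914 then had 12.9, 20.3 and 18.2 in FW33K, 14.7, 11.7 and 11.3 in FW11K and 40.5, 50.3 and 49.8 in FW00K. ENSGACG00000011338 had 8.76, 13.5 and 13.1 in FW33K, 8.82, 9.32 and 9.14 in FW11K and 24.6, 23.9 and 23.2 in FW00K. In both, unscaled FW33K overlapped FW11K, and in ENSGACG00000008655 it did not.

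In another set the FW33K level lay further below FW00K, by differences of -0.63 to -0.49 on the log2 scale. They did not pass the threshold (adjusted p of 0.0307 to 0.107, limma), nor did the other tested differences of these genes. The same difference was -0.15 in ENSGACG00000008655 and -0.04 in ENSGACG00000005914, named above. In ENSGACG00000011338, also named above, it was 0.36 (adjusted p = 0.0368, limma), a p-value within that range, so the sets are not sharply apart. ENSGACG00000013480 (rank 4) had 17.5, 23.1 and 24.2 in SW33K, and 20.7, 31.4 and 30.4 in FW00K, 8.43, 8.17 and 7.92 in FW11K and 16.3, 17.7 and 19.1 in FW33K. ENSGACG00000001132 (rank 6) had 10.1, 15.2 and 15.7 in SW33K, and 9.89, 14.8 and 15.2 in FW00K, 3.66, 2.64 and 2.57 in FW11K and 6.95, 9.18 and 8.31 in FW33K. ENSGACG00000005161 (rank 12) had 13.6, 15.8 and 17.4 in SW33K, and 10.002, 17.9 and 18.3 in FW00K, 5.79, 4.13 and 4.64 in FW11K and 10.3, 10.1 and 10.6 in FW33K. In each of them replicate 1 was the lowest library of FW00K and of SW33K. The remaining members among the first 15 had their highest library in FW33K. ENSGACG00000008367 (rank 13) had 15.2, 11.7 and 11.6 in SW33K, and 13.9, 19.2 and 19.3 in FW00K, 6.91, 5.56 and 5.48 in FW11K and 28.9, 20.1 and 20.4 in FW33K. ENSGACG00000009094 (rank 15) had 13.2, 10.8 and 11.7 in SW33K, and 11.1, 10.1 and 11.6 in FW00K, 3.26, 3.81 and 4.09 in FW11K and 6.98, 14.6 and 16.1 in FW33K.

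Across the 60 members the mean level reached from 2.76 to 119 scaled FPKM in SW33K, and from 1.47 to 82.7 in FW00K, 0.195 to 34.7 in FW11K and 1.18 to 252 in FW33K. The members were not rare transcripts as a group, with a median of the mean deposited FPKM of 11.7 against 11.4 for all tested genes, and 52 had a mean of at least 5 FPKM. Replicates of the members lay close together, with a median coefficient of variation of 14.2% in SW33K (17.4% in all genes), 11.0% in FW00K (17.6%), 12.7% in FW11K (27.0%) and 11.6% in FW33K (18.8%). The score favours genes with little spread, so these percentages are partly a product of the rule.

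What the members did outside FW11K was not used by the rule except through the lowest of the 9 values, and was tested. These tests are not free of the rule. The fit pooled the spread of all 12 libraries, FW11K included, and the score favours genes with little spread. The SE and p-values of members, and their shares called beside all genes, therefore carry part of the choice. The size of that part was not tested. Scaled FPKM plus 1 was compared on the log2 scale with limma over all 15503 genes, and the threshold was an adjusted p (Benjamini-Hochberg) of 0.01. Fold changes on this scale understate the change of genes with low levels. In FW33K over FW00K, the whole range of salinity in FW fish, 8 members were higher and 1 was lower, which is 15% of the 60, whereas 12.0% of all genes were higher and 6.98% lower (19.0% together). The median member changed by 0.15, against a median of all genes of -0.001, and 35 members had groups that did not overlap, as did 54.0% of all genes. Beside *FAM65A*, *NUCB2*, *DDK3*, *SLC28A2*, ENSGACG00000010798 and *KCNIP3*, the higher members were ENSGACG00000012596 (0.87) and ENSGACG00000014216 (0.74), whose differences were -0.41 and -0.60 in unscaled FPKM. The lower member was ENSGACG00000012431, with 8.65, 9.27 and 10.1 in FW33K against 12.9, 13.9 and 15.1 in FW00K (-0.53, SE 0.13, adjusted p = 0.00833). Its FW11K level of 5.12, 4.92 and 4.89 lay below both, and the call was lost without each of 10 libraries in turn (adjusted p up to 0.0426).

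In unscaled FPKM, 36 members were called in FW33K against FW00K, 34 of them lower and 2 (*FAM65A* and *NUCB2*) higher, whereas 49.6% of all genes were lower and 1.71% higher. The median of all genes moved by -1.20 on that scale and the median member by -1.12. The sign of the difference was not the same on both scales in 29 members.

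SW33K was compared with FW33K to set the populations side by side at one salinity. Only 1 member was higher and 3 were lower (6.67%), with 1.60% of all genes higher and 2.57% lower (4.17% together). The median member differed by 0.10, against -0.004 for all genes, and 31 members did not overlap, as did 41.0% of all genes. In unscaled FPKM 1 member was higher and 1 lower, with 1.04% and 0.387% of all genes. The lower members, *NUCB2*, *DDK3* and ENSGACG00000010798, were also among the 8 that were higher in FW33K than in FW00K. The comparisons share the FW33K libraries, and the values of these 3 members in SW33K mostly lay at or near those in FW00K. The exception was SW33K replicate 1 of *NUCB2*, at 79.7 against 35.3 to 41.6 in FW00K. The higher member, ENSGACG00000008520, had 47.2, 40.2 and 42.8 in SW33K against 26.8, 22.4 and 23.4 in FW33K (0.82, SE 0.16, adjusted p = 0.00933). It stood at 16.1, 14.6 and 16.4 in FW00K and 9.24, 6.18 and 6.63 in FW11K. Its call against FW33K was lost without each of 11 libraries in turn (adjusted p up to 0.0454) and in unscaled FPKM (1.38, adjusted p = 0.0123), whereas its rise in SW33K over FW00K by 1.41 (SE 0.16, adjusted p = 0.000166) kept its call without each library but not in unscaled FPKM (0.61, adjusted p = 0.083).

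SW33K and FW00K are each population in the salinity nearest to its own. Here 12 members were higher and 2 lower (23.3%), against 11.6% higher and 8.50% lower of all genes (20.1% together), with a median of 0.19 in members and 0.03 in all genes. The difference was positive in 49 members (81.7%, against 51.6% of all genes) and negative in 11, and 25 members did not overlap, as did 57.1% of all genes. In unscaled FPKM 1 member was higher and 7 were lower, with 1.66% and 20.1% of all genes, 3 of the 14 calls remained, and the sign was not the same on both scales in 35 members. Beside *NDUFS1*, *FAM65A*, ENSGACG00000008520, *F11R* and *RAB25*, the higher members were ENSGACG00000000231 (1.26), ENSGACG00000010077 (1.08), ENSGACG00000011512 (1.04), ENSGACG00000012596 (0.69), ENSGACG00000018545 (0.67), ENSGACG00000003970 (0.66) and ENSGACG00000006600 (0.52). Of these, ENSGACG00000012596, ENSGACG00000018545 and ENSGACG00000006600 turned to -0.04, -0.12 and -0.21 in unscaled FPKM. With the replicate number as a block, ENSGACG00000006600 and ENSGACG00000018545 lost their calls (adjusted p = 0.0119 and 0.0116), and 14 members were called with all 12 libraries. With the block and the 6 libraries of these treatments alone, a setting chosen after the data were seen, 5 members were called, and *F11R* (adjusted p = 0.0105), *FAM65A* (0.0111) and *NDUFS1* (0.0104) were not among them. The lower members were ENSGACG00000012431 (-0.59, adjusted p = 0.00498) and ENSGACG00000010492. ENSGACG00000010492 had 21.2, 18.8 and 20.5 in SW33K against 25.8, 52.7 and 51.2 in FW00K (-0.997, SE 0.24, adjusted p = 0.00839), and 11.3, 11.9 and 11.6 in FW11K and 25.2, 30.9 and 31.2 in FW33K. Replicate 1 of FW00K was the nearest of its group to SW33K, and the call was lost without each of 9 libraries in turn (adjusted p up to 0.039).

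Taking the 3 comparisons side by side, 20 members (33.3%) were called in at least 1 of them, against 28.7% of all tested genes, and 40 in none. With both directions together, the shares of members called lay near those of all genes in each comparison. By direction they differed more. In SW33K over FW00K 20% of members were higher and 3.33% lower, against 11.6% and 8.50% of all genes. In FW33K over FW00K 13.3% were higher and 1.67% lower, against 12.0% and 6.98%. In SW33K over FW33K 1.67% were higher and 5% lower, against 1.60% and 2.57%. The lowest of the 9 values, which the rule used, was in FW00K for 34 members, in FW33K for 18 and in SW33K for 8. The shares by direction are therefore not independent of the choice of the members, and the part of the rule in them was not tested. The most frequent pattern among the called members was a call for a rise in SW33K over FW00K and in no other comparison, with 9 members. A missing call is not an equal level. ENSGACG00000006600, 1 of these 9, differed from FW00K by 0.46 in FW33K (adjusted p = 0.0182, limma) and by 0.52 in SW33K. The pattern of *NUCB2* and *DDK3* (higher in FW33K than in FW00K, lower in SW33K than in FW33K) was shared by 3 members. A call for a rise in FW33K over FW00K and in no other comparison was found in 3. Calls for a rise in both groups at 33 g/L over FW00K were found in 2. Of the calls, 6 of 9 in FW33K against FW00K, 1 of 4 in SW33K against FW33K and 5 of 14 in SW33K against FW00K held without each library in turn. When replicates 2 and 3 were averaged as 1 sample, no member was called by limma in any of the 3 comparisons, with 12, 11 and 13 members at an unadjusted p under 0.05 and 24.2%, 11.1% and 26.1% of all genes. Under that averaging 1 gene of the 15503 was called in FW33K against FW00K and none in the others.

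**Figure D4:**
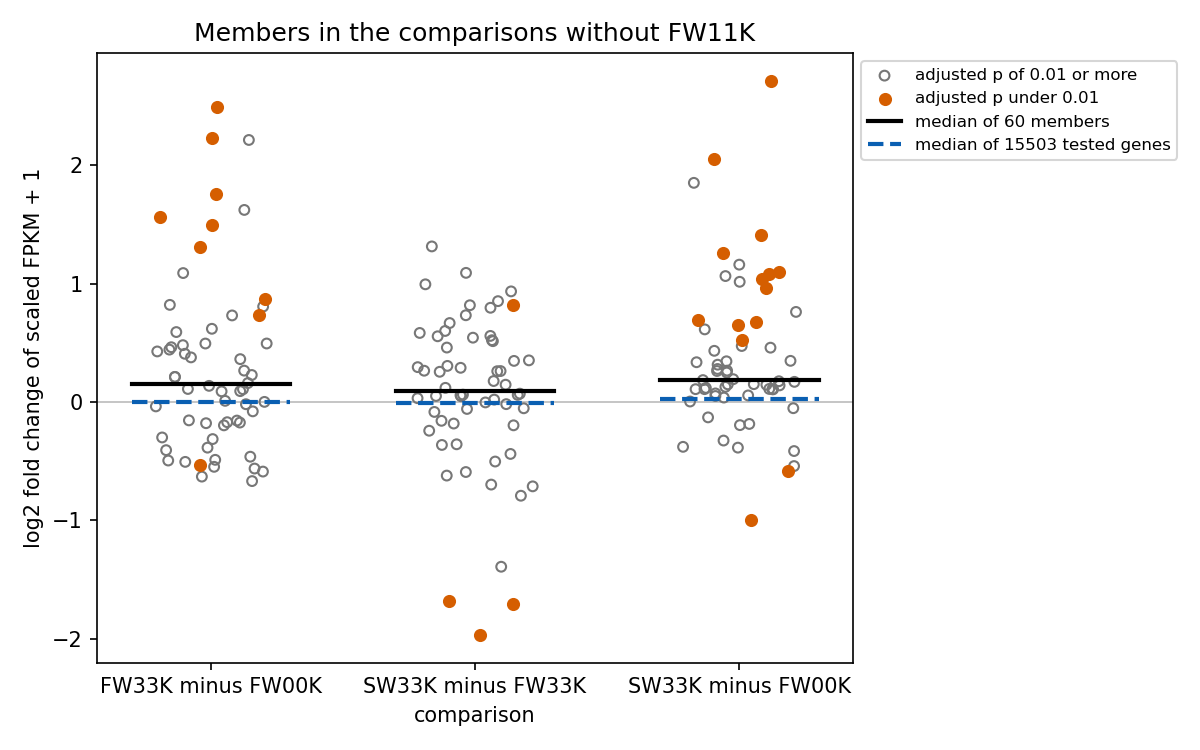
Log2 fold change of scaled FPKM plus 1 (vertical axis) of the 60 members in the 3 comparisons without FW11K (horizontal axis), filled where the adjusted p was under 0.01 (9, 4 and 14 members), with the median of the members as a black line and that of the 15503 tested genes as a dashed blue line. The medians of the members lie between 0.10 and 0.19, and most points are open.

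Lists of genes of the nephron, of blood-forming tissue and of other cell types were set beside the members. Their symbols come from the genes that the study chose on these samples, so their counts are no independent evidence. Of a list of 59 symbols for epithelial junctions, polarity and the basement membrane, 14 were measured under a known symbol. *F11R* and *RAB25* are members, and the 12 others were tested against FW11K. In FW11K over FW00K, 3 of the 12 were lower and none higher (3.46% and 4.57% of all genes), with a median of -0.86 against 0.06 in all genes. In FW33K over FW11K 8 were higher and none lower (8.64% and 5.83% of all genes). In SW33K over FW11K 7 were higher and none lower (9.91% and 11.2%). The 12 genes also differed between the other treatments. In FW33K over FW00K 5 were higher and 2 lower (12.0% and 6.98% of all genes), with a median of 1.24. In SW33K over FW00K 2 were higher and none lower (11.6% and 8.50%), with a median of 0.84. Their summed level was 317, 225 and 234 in SW33K, and 136, 168 and 176 in FW00K, 137, 68.5 and 72.0 in FW11K and 361, 330 and 348 in FW33K. FW11K replicates 2 and 3 were below all other libraries, while replicate 1 was level with FW00K replicate 1. The 3 genes lower in FW11K than in FW00K were the desmosomal genes *DSP* (2 of 2) and *PKP3* (1 of 2) and the polarity kinase *PRKCZ*. None of the 3 was among the 8 higher in FW33K than in FW11K. Their differences there were 0.33, 0.18 and -0.50 (adjusted p = 0.455, 0.713 and 0.13, limma). No listed gene outside the members was thus called on both sides of the dip within FW fish. Against SW33K, *DSP* was among the 7 higher genes (2.05), and *PKP3* and *PRKCZ* were not.

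Of 8 transport genes of the tubule that are not members, 1 was lower in FW11K than in FW00K and none higher (3.46% and 4.57% of all genes). It was *SLC12A1*, the sodium, potassium and chloride cotransporter of the thick ascending limb in mammals, with 18.9, 5.73 and 6.73 in FW11K against 85.7, 96.8 and 100 in FW00K (-3.23, adjusted p = 0.000992). In FW33K it had 18.0, 32.0 and 33.6, which overlapped FW11K (1.46, adjusted p = 0.0169, limma). In SW33K it had 34.9, 54.6 and 55.6 (2.26 over FW11K, adjusted p = 0.00155, limma). The study describes *SLC12A1* as up-regulated with salinity, whereas its FW00K libraries were the highest in scaled FPKM. Of the 8 genes, 2 were higher and 1 lower in FW33K than in FW11K (8.64% and 5.83% of all genes). In SW33K over FW11K 2 of the 8 were higher and none lower (9.91% and 11.2%). Their summed level did not separate FW11K, at 938, 541 and 555, from FW00K, at 888, 1043 and 1065. Most of these sums came from *ATP1B1* (2 of 2), with 633, 346 and 352 in FW11K and 560, 675 and 685 in FW00K. Of 3 further vesicle traffic genes, which include *MYO5C* of the junction list, 3 were higher in FW33K than in FW11K and 3 in SW33K than in FW11K (8.64% and 9.91% of all genes). None passed between FW11K and FW00K (8.03% of all genes in either direction).

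The summed level of 7 leukocyte genes was 1090, 2074 and 2163 in FW11K, against 162 to 201 in SW33K, 772 to 862 in FW00K and 435 to 449 in FW33K, and all 3 FW11K libraries were above the other 9. The sum of 4 erythroid genes was 209, 307 and 321 in FW11K, against 41.2 to 45.2 in SW33K, 37.4 to 42.5 in FW00K and 37.9 to 175 in FW33K, again without overlap. None of the genes of both lists was at 0 in any library. Tested 1 by 1, 2 of 7 leukocyte genes and 2 of 4 erythroid genes were higher in FW11K than in FW00K and none lower (4.57% and 3.46% of all genes). The leukocyte gene *SPI1* (2 of 2), a transcription factor of myeloid and B cells, differed from its sum, with 7.90, 30.0 and 32.5 in FW11K against 14.3, 23.2 and 24.3 in FW00K (-0.006, adjusted p = 0.994), so that FW11K replicate 1 was below all FW00K libraries. In FW33K, 7 leukocyte genes and 1 erythroid gene were lower than in FW11K (5.83% of all genes), and in SW33K, 7 leukocyte genes and 4 erythroid genes were lower than in FW11K (11.2%). The 5 genes of dividing cells summed to 88.9, 170 and 171 in FW11K, against 9.67 to 10.4 in SW33K, 26.6 to 171 in FW00K and 28.4 to 29.6 in FW33K, with FW00K replicate 1 as high as FW11K. The 4 podocyte genes summed to 76.6 to 80.03 in FW11K, against 49.4 to 99.7 in SW33K, 134 to 202 in FW00K and 44.9 to 61.2 in FW33K. Of these genes, 2 were lower in FW11K than in FW00K and none higher (3.46% and 4.57% of all genes). In FW33K all 4 were lower than in FW00K (6.98% of all genes). None was called between FW11K and either group at 33 g/L.

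In all of these sums but that of the podocytes, FW11K replicate 1 lay nearer to the other treatments than FW11K replicates 2 and 3 did. In bulk tissue, fewer cells of a type and less RNA per cell cannot be told apart. The part of the makeup of the tissue in the dip of the members was not tested.

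**Figure D5:**
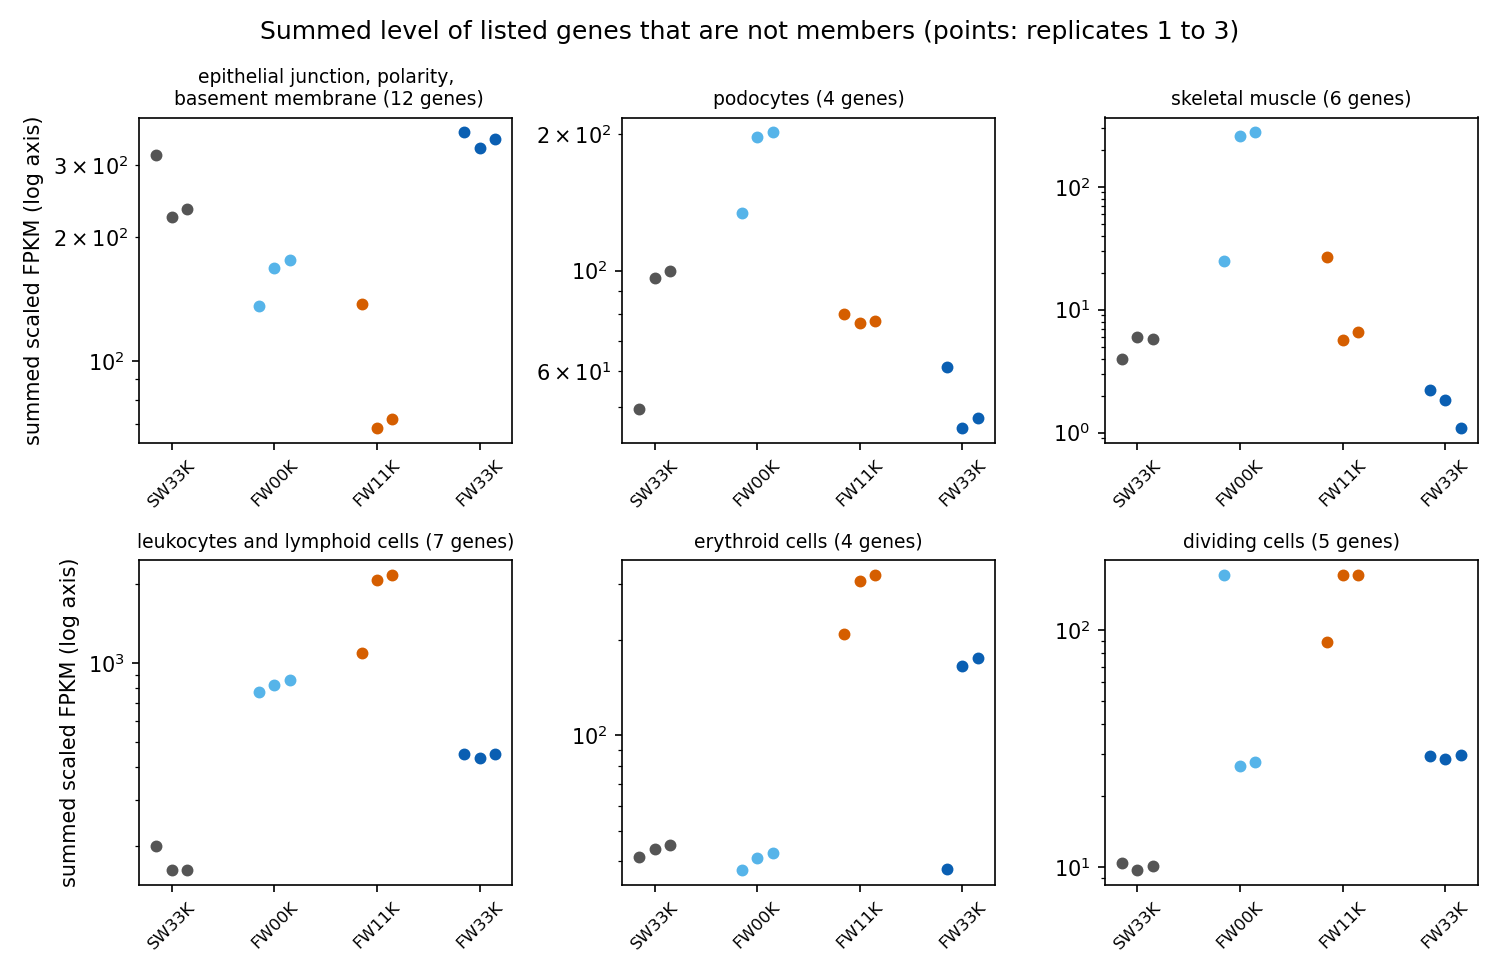
Summed scaled FPKM (log axes) of listed genes that are not members, for 6 cell types or structures (panels), in SW33K, FW00K, FW11K and FW33K, with points for replicates 1 to 3. The leukocyte and erythroid sums are highest in the 3 FW11K libraries, and the junction sum is lowest in FW11K replicates 2 and 3, while FW11K replicate 1 (137) is level with FW00K.

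Genes outside the members with the most similar profile were found by Pearson's r with the mean of the standardised members over the 12 libraries. This is a description, since the libraries share treatments. The 5 most similar genes had no symbol, led by ENSGACG00000018131 with r = 0.966. The most similar genes with a symbol were *C12orf5* (2 of 2) with r = 0.912, *PTPN9* with 0.911, *CARD14* with 0.894, *PLCH2* (1 of 2) with 0.893 and *ENPP5* with 0.893. Each of them had its lowest mean in FW11K, which follows from how these genes were found. Their levels outside FW11K differed from gene to gene. *PTPN9*, a tyrosine phosphatase, averaged 17.4 in SW33K, and 6.30 in FW00K, 2.41 in FW11K and 13.8 in FW33K. *CARD14* averaged 43.4 in SW33K, and 32.2 in FW00K, 13.2 in FW11K and 68.6 in FW33K.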

How the data were processed

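The authors aligned kidney reads with TopHat2 2.0.3 to the masked BROADS1 genome and estimated FPKM with Cufflinks 2.0.2. The deposited table holds FPKM of Ensembl genes in 12 libraries, 3 for each of 4 treatments, which were grouped by the titles of the samples. FPKM gives no read counts, so depth was not computed here, the read numbers of the libraries are not printed, and the study's tests of read counts could not be repeated. Columns were scaled to a median of 10 over the genes that averaged 1 FPKM or more. Log2(scaled FPKM + 1) was fitted with limma 3.58.1 (lmFit, eBayes with a trend) in R 4.3.3, 12 libraries in one fit, with Benjamini-Hochberg adjustment over 15503 genes and a threshold of 0.01. The fit was tested on simulated data with independent libraries, so that test does not cover the likeness of replicates 2 and 3. Figures were drawn in Python 3.11.15 with matplotlib 3.10.9.

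The members and gene lists were chosen with earlier results of these data known. Comparisons with FW11K were used by the rule and not tested for members. Values per library are given for the 15 highest scores, for members with a symbol or on a list, and for the 2 largest rises and falls among the calls of each comparison. Alternatives were unscaled FPKM, median-ratio scaling, quantile normalization, a pseudocount of 0.1, other filters on the mean, a fit to the compared libraries alone, a replicate block, replicates 2 and 3 averaged, a threshold of 0.05 and each library left out. The labels give no meaning to equal replicate numbers. Deviations of same-numbered libraries correlated at 0.20 to 0.36 in SW33K and FW00K, so the numbers were taken as pairs in that comparison, from the correlations alone. The main fit nevertheless had no block. Its SE and adjusted p-values, also those of SW33K against FW00K, therefore ignore the pairs, and the block was fitted as an alternative. Symbols come from the study's tables, and no identifier could be matched to RefSeq. Some items are not reported here.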

Additional observations from a re-analysis of the deposited data

How the results depend on the processing

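The dip below all 9 other libraries was present in 60 members under median-ratio scaling and quantile normalization, and in 21 in unscaled FPKM. These counts reuse the values by which the members were chosen, so they describe the choice and are no support for the dip. Of the first 60 genes, 13 were shared in unscaled FPKM, 18 with treatment means, and 2 to 60 without single libraries. The members called, 9 in FW33K over FW00K, 4 in SW33K over FW33K and 14 in SW33K over FW00K, numbered 36, 2 and 8 in unscaled FPKM and 0, 0 and 0 with replicates 2 and 3 averaged. Quantile normalization gave 15 in the first, and the libraries of the comparison alone 9 in the third. A threshold of 0.05 gave 25 in the first and 16 in the second.

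Without single libraries the counts were 6 to 15, 1 to 8 and 5 to 15. In FW33K over FW00K, 14 were called without FW11K replicate 1 and 15 without SW33K replicate 1. In SW33K over FW33K the counts were 8 and 7 without these 2 libraries, 2 without FW33K replicate 3 or SW33K replicate 2, and 1 without SW33K replicate 3. In SW33K over FW00K they were 5 and 6 without FW00K replicates 2 and 3, 9 without FW33K replicate 2, and 7 without SW33K replicate 2 or 3.

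Unscaled FPKM turned the sign of 29, 13 and 35 members in these comparisons. Among the named members called on either scale these were ENSGACG00000012596 (-0.41), ENSGACG00000014216 (-0.60), ENSGACG00000000231 (-1.10) and ENSGACG00000018545 (-1.13) in FW33K over FW00K, and ENSGACG00000012596 (-0.043), ENSGACG00000006600 (-0.21) and ENSGACG00000018545 (-0.12) in SW33K over FW00K. The median of all genes moved by -1.20 and -0.69 without scaling. The cause of the other changes was not tested.

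With the replicate number as a block, 11, 4 and 14 members were called, and 5 in SW33K over FW00K with the libraries of that pair alone, a setting added after the data were seen. ENSGACG00000008520 gained a call in FW33K over FW00K (adjusted p = 0.0061, limma). Of 18 same-numbered pairs of libraries, 11 had deviations that correlated above 0.1 (range -0.04 to 0.40), and 6 of 12 libraries correlated best with their own number in every other treatment. The numbers were taken as pairs in SW33K and FW00K only, and the main fit had no block in that comparison either. The range was 0.03 to 0.24 in FW33K and FW00K and 0.098 to 0.32 in SW33K and FW33K. It was highest in FW11K and FW33K, at 0.27 to 0.40, and the tests of listed genes between these treatments had no block.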
